A study of Homo sapiens with 9 samples.

Results

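The MYC-MAX-MXD network was followed in RNA-Seq data of H1975 cells through 10 of its genes, MYC, MYCL, MAX, MNT, MXD1, MXD3, MXD4, MXI1, MLX and MGA. They were chosen as members of the network, with earlier results of these data known, and were matched by symbol among 61544 genes in the count tables, where all 10 were found. H1975 is an established human lung adenocarcinoma line of epithelial type. All 9 libraries came from cells that first received si78, a small interfering RNA against the endogenous GRP78 message, for 24 h, and then a plasmid for 48 h. There were 3 libraries of each of 3 groups. The vector group received the empty plasmid pcDNA3. The F-78(WT) group received FLAG-tagged wild-type GRP78, which si78 does not target, and the F-78(NLS Mut) group the same protein with its nuclear localization signal mutated. GRP78, encoded by HSPA5, is the main HSP70 chaperone of the endoplasmic reticulum, and the comparison of both forms asked what its nuclear form does to gene expression.

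The design sets some limits on these groups as a model. The plasmids were transfected transiently into 1 cell line, no library without si78 was analysed here, and the vector cells therefore stand for cells depleted of GRP78. HSPA5 was 378 ± 17.1 CPM (reads of a gene per 1000000 reads counted in the library, SD, n = 3) with vector, 5664 ± 572 with F-78(WT) and 4961 ± 195 with F-78(NLS Mut). This matches the labels for vector against a GRP78 plasmid, but gene counts cannot tell F-78(WT) from F-78(NLS Mut). Between both forms the log2 difference of HSPA5 was 0.19 (SE 0.05, adjusted p = 0.079 in edgeR's quasi-likelihood test). Each library held 17671055 to 27476298 reads on genes. The 6 epithelial markers had means of 201 to 1588 CPM, and markers of leukocytes, endothelium and red cells had 0 to 7.78 CPM. The labels do not say whether the 3 libraries of a group came from separate cultures, so p-values measure only the spread between these libraries, which may be technical. In the dependence of counts on GC content, vector replicates 2 and 3 stood apart from all other libraries. Their log2 level changed by 0.10 and 0.11 per 10 points of GC. The change was -0.04 in vector replicate 1, within the -0.08 to 0.03 of the 6 libraries with a GRP78 plasmid. GC dependence was thus partly confounded with the comparisons against vector. Fits without vector replicate 1 keep only vector replicates 2 and 3. The part of this GC dependence in the results was not tested beyond the values given with the GC correction.

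The network works as a switch between partners. MAX, a small basic helix-loop-helix leucine zipper protein, forms dimers with MYC that bind the E-box CACGTG and recruit histone acetyltransferases and elongation factors. The MXD proteins and MNT also pair with MAX at E-boxes but bring the SIN3 and histone deacetylase co-repressor. MGA joins MAX to a polycomb complex, and MLX pairs with some MXD proteins, MNT and the glucose sensors MLXIP and MLXIPL. MYC RNA and protein are short-lived, and some lung adenocarcinomas carry amplified MYC or lose MGA. These are roles of proteins, and only RNA was measured here.

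The E-box is shown here because it is the sequence that every dimer of the network reads. A promoter window of 250 bases before to 50 after the start was at hand from RefSeq (GRCh38.p14) for 9 of the 10 genes, without MYC. CACGTG, which reads the same on both strands, was searched in these windows, and the windows of MLX, MNT and MXD4 held it. That was 3 of 9 genes, against 2396 of 27305 genes (8.78%) in the whole table, and those of MXD1, MXD3, MXI1, MAX, MGA and MYCL did not hold these letters. The stretches around the match are printed 5′ to 3′ on the gene's strand with the E-box in capitals. They lie at chr17:42567010-42567095 on the plus strand for MLX, at chr17:2401208-2401293 on the minus strand for MNT and at chr4:2262302-2262359 on the minus strand for MXD4.
MLX: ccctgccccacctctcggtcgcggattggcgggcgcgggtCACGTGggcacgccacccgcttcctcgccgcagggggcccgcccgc
MNT: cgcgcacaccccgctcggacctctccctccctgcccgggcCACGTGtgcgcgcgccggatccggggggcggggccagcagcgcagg
MXD4: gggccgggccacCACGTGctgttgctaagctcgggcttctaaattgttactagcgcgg
The match begins 50 bases before the RefSeq start of the window in MLX, 193 in MNT and 238 in MXD4. The GENCODE starts of these 3 genes lie nearer to the match, at chr4:2262294 in MXD4. How close the match is to the start thus depends on the annotation. A match of letters is a description and not a measured site, since no binding was assayed.

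MYC, which encodes the c-MYC activator, was lower in F-78(WT) than in both other groups. The gene lies on the plus strand at chr8:127735434-127741434 (GRCh38, GENCODE release 29) with 3 exon blocks. It was at 602.7, 719.5 and 749.0 CPM in vector replicates 1, 2 and 3, at 431.3, 537.1 and 501.7 CPM in the F-78(WT) replicates and at 713.7, 731.3 and 677.6 CPM in the F-78(NLS Mut) replicates. Each F-78(WT) library was below all 6 others, while the vector and F-78(NLS Mut) libraries overlapped. Within the F-78(WT) and vector groups, replicate 1 was the lowest.

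Against vector, MYC fell by 0.49 on the log2 scale in F-78(WT) (SE 0.07, 95% interval -0.63 to -0.36) and thus by 29.02% (edgeR's quasi-likelihood test, adjusted p = 2.4e-04). Against F-78(NLS Mut), it fell by 0.53 (SE 0.07, interval -0.67 to -0.39), and thus by 30.7%, with an adjusted p of 9.5e-05 in the same test. Both comparisons use the same F-78(WT) libraries. By p-value MYC stood at rank 7 and rank 5 of 18653 tested genes. Between F-78(NLS Mut) and vector its log2 difference was 0.04 (SE 0.07, interval -0.10 to 0.17, adjusted p = 0.90), which did not pass. MYC is among the genes that the study labelled from these same libraries, so its rank here is not independent of that choice. With GC and length correction the difference between F-78(WT) and vector was -0.41.

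The other 9 members had no called difference. Counted at an adjusted p under 0.05, 1 of 10 members, MYC, was lower in F-78(WT) than with vector and 0 were higher, where 0.343% of all tested genes were lower and 0.214% higher. Between F-78(NLS Mut) and vector edgeR called 0 of 10, with 0.499% of all genes lower and 0.295% higher, and DESeq2 also called 0 there. Against F-78(NLS Mut), 1 of 10 members, again MYC, was lower in F-78(WT), where 0.204% of all genes were lower and 0.300% higher. Members with libraries that did not overlap between groups numbered 2 in F-78(WT) against vector, 2 in F-78(NLS Mut) against vector and 4 between both forms. The background was 13.1%, 18.1% and 17.7% of all tested genes, so the first 2 counts were near it. An unadjusted p under 0.05 was found for 3, 2 and 5 of the 10 members, where 11.7%, 12.2% and 11.6% of all tested genes had one. The median log2 difference of the 10 members was 0.03, 0.02 and -0.03 in these 3 comparisons, beside -0.00, -0.00 and -0.01 for all tested genes.

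**Figure D1:**
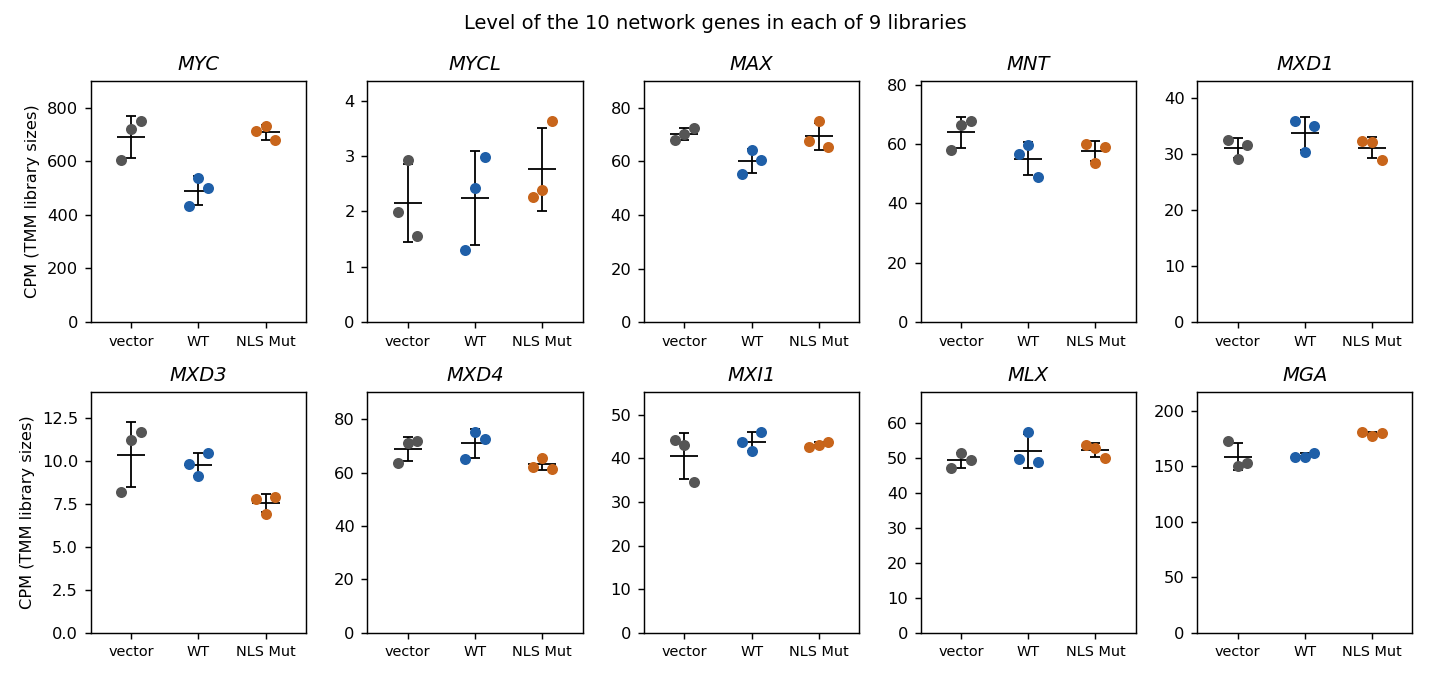
CPM of each network gene (vertical axes from 0, with their own scale per gene) in the 9 libraries, by group. Points are replicates 1 to 3 from left to right, and the bars give mean ± SD of 3 libraries. MYC shows all 3 F-78(WT) libraries, at 431.3 to 537.1 CPM, below the 6 others.

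MAX, the shared partner of MYC, the MXD proteins, MNT and MGA, was also lowest in F-78(WT), by a smaller difference. It was at 68.1, 70.1 and 72.6 CPM with vector, at 55.4, 64.1 and 60.7 CPM with F-78(WT) and at 67.6, 74.99 and 65.3 CPM with F-78(NLS Mut). All 3 F-78(WT) libraries were below the 6 others, the nearest being 64.1 against 65.3 CPM. The log2 difference was -0.23 (SE 0.08, adjusted p = 0.21) against vector and -0.21 (SE 0.08, adjusted p = 0.27) against F-78(NLS Mut) in the edgeR fit, and neither passed. Between F-78(NLS Mut) and vector it was -0.02 (SE 0.08). MYCL, the family member first found amplified in small cell lung cancer, was thinly covered, with 29 to 81 reads in a library. Its levels were 1.99, 2.93 and 1.55 CPM with vector, 1.31, 2.43 and 2.99 CPM with F-78(WT) and 2.26, 2.39 and 3.63 CPM with F-78(NLS Mut), and the groups overlapped. The standard error of its log2 differences, 0.34 to 0.35, was the largest of the 10.

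MNT, the broadly expressed repressor that pairs with MAX and MLX, was at 58.0, 66.3 and 67.7 CPM with vector, at 56.7, 59.6 and 49.1 CPM with F-78(WT) and at 60.01, 53.7 and 59.1 CPM with F-78(NLS Mut). Its groups overlapped in every comparison, and the log2 difference of F-78(WT) from vector was -0.22 (SE 0.08, adjusted p = 0.29 in edgeR). Without vector replicate 1 that value was -0.28 with an adjusted p of 0.035, in a fit that called 1256 of 19857 genes. The fit reported called 104 of 18653. With GC and length correction the MNT difference was -0.11 with an adjusted p of 0.60. Whether MNT was called thus depended on vector replicate 1.

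Among the MXD repressors, MXD3 was the most variable between groups and the least well counted. It was at 8.22, 11.2 and 11.7 CPM with vector, at 9.81, 9.13 and 10.5 CPM with F-78(WT) and at 7.82, 6.94 and 7.89 CPM with F-78(NLS Mut). The F-78(NLS Mut) libraries lay below all others. Its log2 difference was -0.47 (SE 0.16, adjusted p = 0.19) in F-78(NLS Mut) against vector and 0.38 (SE 0.16, adjusted p = 0.35) in F-78(WT) against NLS Mut by edgeR. Neither passed with all 9 libraries. Without vector replicate 1 the first was -0.61 with an adjusted p of 0.024, where 1002 of 19857 genes were called in place of 148. With GC and length correction it was -0.34 with an adjusted p of 0.34. With the reads of both strands summed it was 0.11, in the other direction.

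MXD1, MXD4 and MXI1, repressors tied to differentiation and growth arrest, overlapped between groups in all 3 comparisons. MXD1 ranged from 28.9 to 35.8 CPM, and its log2 difference in F-78(WT) was 0.12 (SE 0.10) from vector and 0.11 (SE 0.10) from F-78(NLS Mut). MXD4 ranged from 61.6 to 75.3 CPM, and the difference between F-78(WT) and NLS Mut was 0.17 (SE 0.08, adjusted p = 0.40 in edgeR). MXI1 ranged from 34.5 to 46.0 CPM, with the lowest value in vector replicate 3, and all its differences were from 0.02 to 0.11. The 95% intervals of these 3 repressors reached from -0.28 to 0.32 over the 3 comparisons, and that of MXD4 between both forms, 0.02 to 0.32, was the only one without 0.

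MLX, the dimer partner of the glucose sensors, ranged from 48.6 to 57.4 CPM in F-78(WT) and from 47.1 to 53.7 CPM in the other 6 libraries. Its log2 differences from vector were 0.08 (SE 0.08) with both GRP78 forms. MGA, a large protein with a T-box domain beside its MAX-binding domain, was at 172.5, 150.7 and 153.2 CPM with vector, at 158.1, 158.6 and 162.1 CPM with F-78(WT) and at 181.0, 177.0 and 179.9 CPM with F-78(NLS Mut). The 3 F-78(NLS Mut) libraries were the highest of all 9. The log2 difference of F-78(NLS Mut) from vector was 0.18 (SE 0.06, adjusted p = 0.20) and that of F-78(WT) from F-78(NLS Mut) was -0.17 (SE 0.06, adjusted p = 0.24), neither passing in edgeR. The first was 0.23 with an adjusted p of 0.0094 without vector replicate 1, where 1002 of 19857 genes were called in place of 148. With GC and length correction it was 0.12 with an adjusted p of 0.26. The second was -0.19 with an adjusted p of 0.032 with that correction, where 429 of 18187 genes were called in place of 94.

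**Figure D2:**
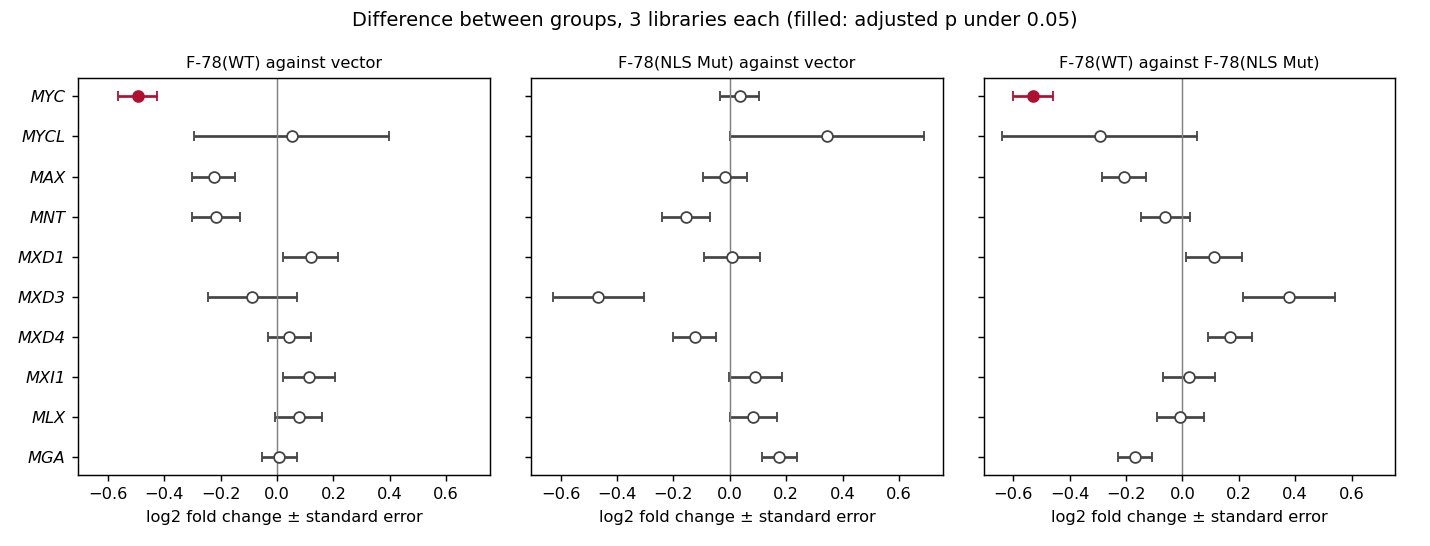
Log2 fold change (horizontal axis) of the 10 genes in the 3 comparisons, with standard errors from the edgeR fit of all 9 libraries. MYC, the filled point, passed in both comparisons with F-78(WT), at -0.49 and -0.53, and no gene passed in F-78(NLS Mut) against vector.

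Per length, MYC exceeded every other member by far. Levels between genes were compared as CPM per kilobase of exon, averaged over the 9 libraries. MYC stood at 210 and MAX, the next, at 15.02. Then came MLX at 12.0, MXD4 at 9.59, MGA at 9.40, MXI1 at 9.23, MNT at 6.75, MXD1 at 5.03, MXD3 at 1.79 and MYCL at 0.471 CPM per kilobase. The ranges over the 9 libraries overlapped between MAX and MLX, MXD4 and MGA, MGA and MXI1, MXI1 and MNT, and MNT and MXD1, and not between the other neighbours. Within a library, MAX stood above MLX and MNT above MXD1 in 9 of 9, by a ratio of at least 1.07 and 1.02. MXD4 stood above MGA and MGA above MXI1 in 5 of 9 libraries each, and MXI1 above MNT in 8 of 9. The order of MXD4, MGA and MXI1 is thus not resolved. Other places also depended on the way of counting. With the reads of both strands summed, MXD3 moved to rank 3, and MXI1 stood at 10.4, MNT at 9.592, MXD4 at 9.586 and MGA at 9.43.

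As a level per kilobase, MYC was 230 ± 25.8 (SD, n = 3) with vector, 163 ± 18.0 with F-78(WT) and 236 ± 9.12 with F-78(NLS Mut). The summed level of its 5 competitors MNT, MXD1, MXD3, MXD4 and MXI1 was 32.8 ± 0.904, 33.1 ± 0.323 and 31.3 ± 0.238 CPM per kilobase in the same order. The ratio of MYC to that sum was 7.01 ± 0.686 with vector, 4.93 ± 0.516 with F-78(WT) and 7.54 ± 0.268 with F-78(NLS Mut). The F-78(WT) libraries had ratios of 4.39 to 5.41, below the 6.28 to 7.65 with vector and the 7.27 to 7.81 with F-78(NLS Mut). An exact permutation test of 3 against 3 libraries cannot go below 0.10, and this ratio carries the MYC difference within it, so no test was run on it. The ratio of MYC to MAX was 14.5 ± 1.23, 12.0 ± 0.469 and 15.1 ± 0.622, and MYC made up 76.7%, 70.4% and 77.1% of the summed level of the 10 genes.

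**Figure D3:**
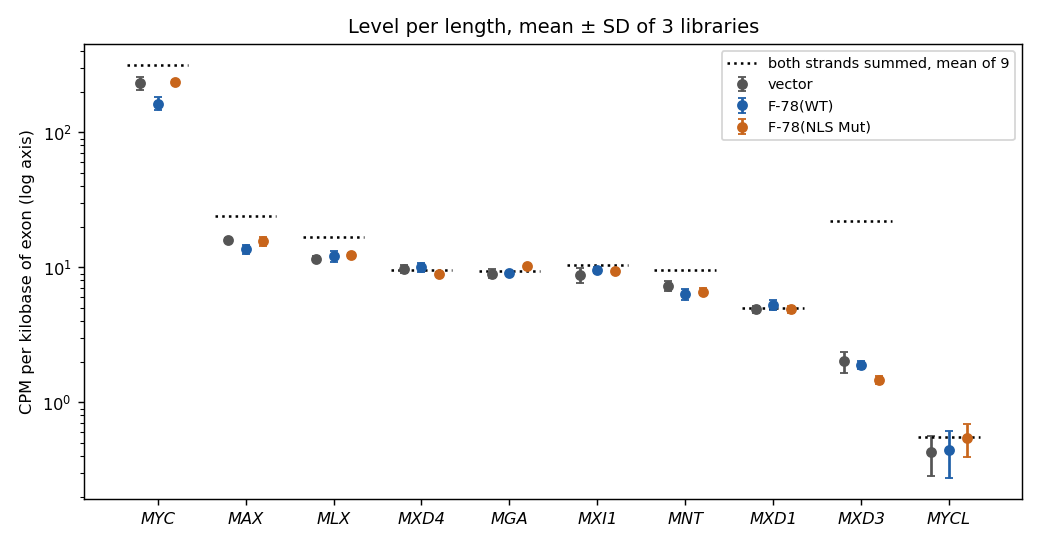
CPM per kilobase of exon on a log axis, mean ± SD of 3 libraries per group, with the genes ordered by their mean. The dotted lines give the mean of 9 libraries when reads of both strands are summed, which places MXD3 at 21.99 in place of 1.79.

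The way of counting mattered for several members. The counts used here ignore strand, and a read on exons of genes from both strands is then given to neither. Summing the deposited counts of each strand restores such reads, though they are then counted for both genes. For MYC, 32.0% to 38.4% of the summed reads were missing from the count without strand. The summed level was 1026 ± 123 CPM with vector, 754 ± 48.3 CPM with F-78(WT) and 1074 ± 55.0 CPM with F-78(NLS Mut). The log2 differences of F-78(WT) were then -0.44 from vector and -0.50 from F-78(NLS Mut). GENCODE release 29 has no gene over MYC, so the opposite gene that takes these reads in the authors' annotation is not named here.

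For MXD3 the missing share was 89.8% to 94.4%. PRELID1, a mitochondrial lipid transfer gene on the opposite strand, covers 1158 of its exon bases (22.5%), and RAB24 on the same strand covers 926. MXD3 values above are therefore those of a small remainder, and the sum, in which MXD3 stands at rank 3, may be mostly reads of the neighbour. The share was 30.9% to 42.6% for MAX, 25.7% to 35.8% for MNT, 27.0% to 31.2% for MLX and 6.63% to 17.4% for MXI1. PSMC3IP on the opposite strand covers 770 exon bases of MLX. MXD1 and MXD4 lost 0 reads and MGA at most 0.627%.

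**Figure D4:**
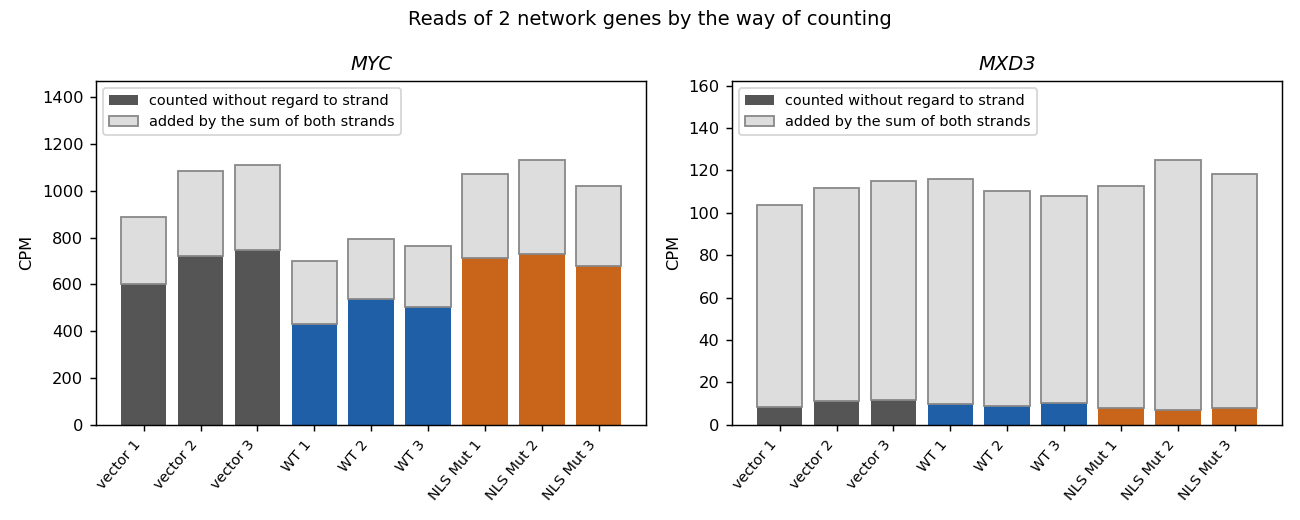
CPM of MYC and MXD3 in each library, with bars from 0. The coloured part was counted without regard to strand and the grey part was added by summing both strands, which adds 32.0% to 38.4% of the sum for MYC and 89.8% to 94.4% for MXD3.

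The rest of the extended network did not pass in edgeR in any comparison. MYCN, the neural family member, had 0 reads in all 9 libraries. MLXIP, a glucose sensor that pairs with MLX, was at 89.4 ± 3.11, 92.5 ± 8.18 and 95.7 ± 5.35 CPM with vector, F-78(WT) and NLS Mut. MLXIPL, its carbohydrate-responsive relative, was at 16.5 ± 2.24, 13.2 ± 0.419 and 11.8 ± 1.82 CPM. Its log2 difference was -0.32 (SE 0.14, adjusted p = 0.34) for F-78(WT) and -0.47 (SE 0.14, adjusted p = 0.12) for F-78(NLS Mut), each against vector in edgeR. DESeq2 called MLXIPL in F-78(NLS Mut) against vector. Of 10 tested targets of MLX and its partners, SCD, the stearoyl-CoA desaturase, rose in F-78(WT) against vector by 0.23 (SE 0.05, adjusted p = 0.014) and no other target was called by edgeR in any comparison. Among all tested genes 0.214% were called higher there. The edgeR call of SCD was lost without vector replicate 2, vector replicate 3 or F-78(WT) replicate 1, and with only the 2 groups fitted. DESeq2 called 2 of these 10 targets in F-78(WT) against vector, 0 in F-78(NLS Mut) against vector and 1 between both forms. In the same order it called 262, 413 and 309 of the 18653 tested genes.

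Cofactors and regulators of the network were mostly uncalled. None of the 25 co-activators and partners of MYC, the 19 members of the SIN3 and histone deacetylase co-repressor, the 13 partners of MGA in the polycomb complex or the 22 genes of MYC protein turnover passed in edgeR's test in any of the 3 comparisons. Calls were also rare among all tested genes, at 0.204% to 0.499% per direction and comparison. Of the 79 list entries, a few in more than 1 list, 9, 14 and 10 had an unadjusted p under 0.05. The order is F-78(WT) against vector, F-78(NLS Mut) against vector and between both forms. Among all tested genes, 11.7%, 12.2% and 11.6% had one. DESeq2 called 1, 2 and 1 of the entries, and 262, 413 and 309 of the 18653 tested genes. Of 19 tested regulators of MYC RNA, AGO2, an Argonaute protein of small RNA silencing, was lower in F-78(WT) than in NLS Mut by a log2 difference of -0.29 (adjusted p = 0.047 in edgeR), a call that held in 1 of 9 fits that each left out 1 library and was lost with DESeq2 size factors and with the sum of both strands.

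PVT1, the long noncoding RNA next to MYC, was the only called gene of the 5 tested transcripts beside it. It was at 334.5, 345.0 and 372.7 CPM with vector, at 308.2, 324.1 and 329.7 CPM with F-78(WT) and at 383.4, 357.5 and 396.8 CPM with F-78(NLS Mut). The F-78(WT) libraries were the lowest in this gene as in MYC. The log2 difference was -0.24 (SE 0.06, adjusted p = 0.047) against F-78(NLS Mut) and -0.13 (SE 0.06, adjusted p = 0.35) against vector by edgeR, so only the first passed. That call held in 2 of the 9 fits without 1 library and was lost with DESeq2 size factors. CASC11, CASC8 and PCAT1 had means of 0.967 to 1.75 CPM and POU5F1B of 0.239 to 0.405 CPM, all with overlapping groups except CASC11, which was lower in F-78(WT) than in NLS Mut with an SE of 0.43.

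Genes known as targets activated by MYC included 8 that passed as lower with F-78(WT) than with NLS Mut. Of 93 such genes in a hand-written list, 91 were tested. In that comparison, 0 were called higher and 83 did not pass. The median of the list was -0.16, beside -0.01 for all tested genes, with 80 of 91 lower. Libraries did not overlap for 48 of 91 (52.7%), all lower, where the background in either direction was 17.7%, and the background of lower calls was 0.204%. Between F-78(NLS Mut) and vector, 5 rose and 0 fell, with a median of 0.12 and 79 of 91 higher, where 0.295% of all tested genes rose. Libraries did not overlap for 42.9% of the list, against 18.1% of all genes. Between F-78(WT) and vector, 1 fell and 0 rose, with a median of -0.04, where 0.343% of all genes fell. Here 14.3% of the list did not overlap, against 13.1% of all genes. DESeq2 called 17, 13 and 3 list genes in these comparisons, and 309, 413 and 262 of the 18653 tested genes. These comparisons share libraries and are not independent. CACGTG was in the window of 37 of the 79 list genes with one at hand (46.8%), against 2396 of 27305 genes (8.78%) in the whole table. The list was written from known MYC targets, so this share is not independent of that choice.

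ODC1, the first enzyme of polyamine synthesis, fell by 0.37 in F-78(WT) against NLS Mut (SE 0.06, adjusted p = 0.0023 in edgeR). It was at 250 ± 16.9 CPM with vector, 222 ± 10.3 CPM with F-78(WT) and 287 ± 21.2 CPM with F-78(NLS Mut). MCM2, a subunit of the replicative helicase, fell by 0.36 (SE 0.07, adjusted p = 0.0055 in edgeR), from 113 ± 3.87 CPM to 88.3 ± 4.18 CPM, and was at 89.1 ± 2.56 CPM with vector. Its F-78(WT) and vector levels thus lay together and F-78(NLS Mut) was higher.

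RRP9, a ribosomal RNA processing factor, fell by 0.36 in the same comparison. There CYCS, cytochrome c, fell by 0.32 and CAD, which starts pyrimidine synthesis, by 0.29. CAD was at 212 ± 10.6 CPM with vector, 203 ± 3.02 CPM with F-78(WT) and 248 ± 7.28 CPM with F-78(NLS Mut). As for MCM2, its F-78(WT) and vector levels lay together and F-78(NLS Mut) was higher. In F-78(NLS Mut) against vector, MCM4, another helicase subunit, rose by 0.41 (SE 0.06, adjusted p = 4.8e-04 in edgeR), from 163 ± 12.4 CPM to 217 ± 11.7 CPM. SORD, sorbitol dehydrogenase, rose by 0.35, MCM2 by 0.35, PAICS, a purine enzyme, by 0.24 and TFRC, the transferrin receptor, by 0.24. In F-78(WT) against vector SLC7A5, the light chain of an amino acid transporter, fell by 0.22 (SE 0.05, adjusted p = 0.038 in edgeR), and this call was lost with the sum of both strands and with GC and length correction.

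Many of these calls rested on single libraries. Among the named list genes, MCM4 in F-78(NLS Mut) against vector kept its call in all 9 fits without 1 library, and ODC1 lost it only without F-78(NLS Mut) replicate 2. Leaving out F-78(NLS Mut) replicate 2 ended the call of MCM2 in both comparisons. So did CYCS, CAD, RRP9, PAICS, TFRC, SORD, SLC7A5, AGO2 and PVT1, whose calls held in 7, 5, 3, 3, 4, 1, 2, 1 and 2 of the 9 fits. PAICS, TFRC and SORD also lost theirs with library size alone, TFRC with GC and length correction, and SORD with DESeq2 size factors and with only the 2 groups fitted. The number of list genes called lower in F-78(WT) against NLS Mut was 0 without F-78(NLS Mut) replicate 2, 1 without F-78(WT) replicate 1 and 20 without vector replicate 1. It was 24 with GC and length correction and 27 with the replicate block added. In the same order, lower calls over all tested genes numbered 7, 9, 185, 232 and 282, against 38 in the fit reported. The number of list genes called higher in F-78(NLS Mut) against vector was 5 with all libraries. It was 1 without vector replicate 3 or F-78(NLS Mut) replicate 2. Without vector replicate 2, F-78(NLS Mut) replicate 1 or F-78(NLS Mut) replicate 3 it was 2. It was 3 without F-78(WT) replicate 3, 11 without vector replicate 1, 20 with the correction and 23 with the block added. All tested genes called higher numbered 55 in the fit reported and 11 without vector replicate 3 or F-78(NLS Mut) replicate 2. They numbered 473 without vector replicate 1, 224 with the correction and 260 with the block added. In F-78(WT) against vector, 12 list genes were called lower without vector replicate 1, in place of 1. Over all tested genes 730 were then lower, in place of 64. The median of the list was less mobile, at -0.16 to -0.14 between both forms over the fits without 1 library. MCM2, ODC1 and CYCS are among genes that the study labelled from these libraries.

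**Figure D5:**
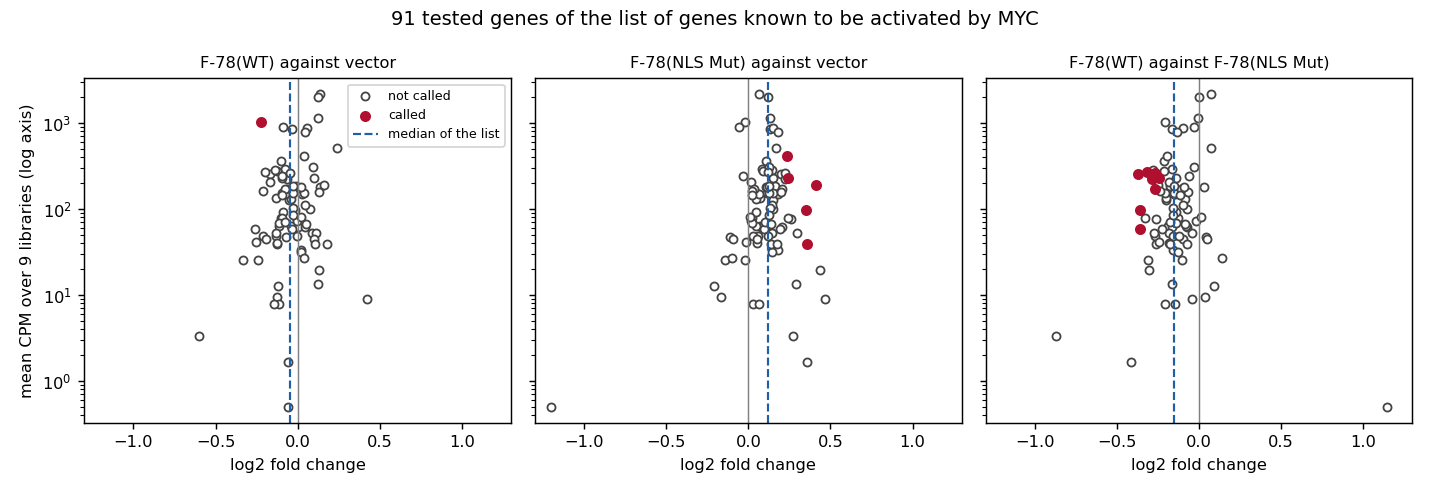
Log2 fold change (horizontal axis) against mean CPM over 9 libraries (log axis) for the 91 tested genes of the activated list. Filled points passed the test, and the dashed line is the median, at -0.04, 0.12 and -0.16 from left to right.

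Of 21 genes known as repressed by MYC, 18 were tested. The median was -0.02, -0.13 and 0.00 in F-78(WT) against vector, F-78(NLS Mut) against vector and F-78(WT) against NLS Mut. In the same order, 10, 13 and 9 of the 18 were lower, and libraries did not overlap for 38.9%, 44.4% and 38.9%, against 13.1%, 18.1% and 17.7% of all tested genes. DDIT3, the stress factor CHOP, fell by 0.63 (SE 0.09, adjusted p = 3.3e-04) and GADD45A, a growth arrest and DNA damage gene, by 0.54 (SE 0.08, adjusted p = 6.8e-04) in F-78(WT) against vector by edgeR, and 0 rose. Both are also known stress genes downstream of the unfolded protein response. COL1A2, a chain of type I collagen, fell by 0.35 in F-78(NLS Mut) against vector (SE 0.06, adjusted p = 0.0033 in edgeR). Between F-78(WT) and NLS Mut, COL1A2 rose by 0.55 (SE 0.06, adjusted p = 1.4e-05) and CLU, the chaperone clusterin, by 0.35 (SE 0.08, adjusted p = 0.047), while GADD45A fell by 0.42 (SE 0.08, adjusted p = 0.012), all by edgeR. The called members of this list thus went both ways. They were 2 lower and 0 higher in F-78(WT) against vector, where 0.343% of all tested genes were lower and 0.214% higher. In F-78(NLS Mut) against vector they were 1 and 0, where all tested genes had 0.499% and 0.295%. Between both forms they were 1 and 2, where all tested genes had 0.204% and 0.300%. DESeq2 called 3, 1 and 5 of the 18, and 262, 413 and 309 of the 18653 tested genes. COL1A2 is a gene that the paper itself names as up-regulated by F-78(WT) over F-78(NLS Mut) from these libraries, so its call is not independent of that. Without F-78(NLS Mut) replicate 2, the calls of COL1A2 against vector, of CLU and of GADD45A against F-78(NLS Mut) were lost, while those of DDIT3 and GADD45A against vector and of COL1A2 between both forms held in all 9 fits without 1 library.

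The 6 genes whose pattern over the 9 libraries was most like that of MYC were GADD45A, TPRA1, SAP30, ASF1B, IL11 and SLC3A2. Likeness was the root mean square difference of log2 CPM, each centred on its own mean, among the 15044 genes tested whose mean reached at least 1 CPM. It was 0.087 for GADD45A, 0.090 for TPRA1, 0.098 for SAP30, 0.0995 for ASF1B, 0.103 for IL11 and 0.103 for SLC3A2, against a median of 0.309 over those genes. MYC's own spread around its mean was 0.268. The nearest member was MAX at 0.159, followed by MNT at 0.227, and the farthest was MYCL at 0.427. GADD45A was at 63.8, 75.6 and 78.3 CPM with vector, at 48.2, 53.7 and 48.1 CPM with F-78(WT) and at 67.0, 67.7 and 65.7 CPM with F-78(NLS Mut), so it too had all F-78(WT) libraries below the 6 others. SAP30 is a subunit of the SIN3 co-repressor and SLC3A2 is the heavy chain that pairs with SLC7A5.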

How the data were processed

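For each of the 9 libraries the authors deposited a table of unnormalized read counts by gene, as STAR writes it. The submitters' processing notes name STAR 2.7.9a, DESeq2 1.36.0 and GRCh38.p14, and the annotation used for counting was not given in the sources used here. The unstranded count was taken, because 50.6% to 51.9% of reads fell on the forward strand. Summary lines that name no gene held 27.6% to 30.7% and were left out. Coordinates and exon lengths came from GENCODE release 29 (GRCh38), which held 58342 of the 61544 gene IDs, and symbols were at hand for 61536.

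edgeR 4.0.16 in R 4.3.3 fitted all 9 libraries jointly by quasi-likelihood, with a coefficient for each group, TMM scaling (factors 0.989 to 1.02) and filterByExpr, which kept 18653 genes and all 10 members. P-values were adjusted by Benjamini-Hochberg in each comparison over all genes tested, and 0.05 was the threshold. CPM use TMM library sizes. The median biological coefficient of variation was 11.2%, and no 2 replicates were alike within sampling noise. The procedure was tested on simulated data. Alternatives were DESeq2 1.42.0, other scaling and filters, the sum of both strands, GC and length correction, the replicate number as a block and leaving out each library.

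The members and gene lists were chosen with earlier results of these data known. Named were all members, HSPA5, the tested genes of the extended network and beside MYC, overlapping genes, the 6 genes most like MYC, and in other lists at most the 5 largest called genes per direction and comparison.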

Additional observations from a re-analysis of the deposited data

How the results depend on the processing

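MYC kept its call and its direction in all 19 alternatives in both comparisons with F-78(WT), at -0.58 to -0.41 against vector (highest adjusted p 0.0048) and -0.59 to -0.44 against F-78(NLS Mut) (highest adjusted p 0.0025, both over edgeR and DESeq2 fits). The median of the activated list kept its direction in all 19, at -0.07 to -0.01, 0.09 to 0.16 and -0.16 to -0.14 in F-78(WT) against vector, F-78(NLS Mut) against vector and F-78(WT) against NLS Mut. In F-78(WT) against vector the reported median of -0.04 was about as large as the spread of the list between replicates, 0.041. The median of all tested genes there was -0.030 with library size alone and 0.015 with GC and length correction. The number of all genes called moved far more, and the cause was not tested.

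In F-78(WT) against vector, where 104 genes were called, the number was 262 with DESeq2, 289 without a filter, 26 with only the 2 groups fitted, 232 with the replicate block, 202 with GC and length correction and 249 with that correction and the replicate block. It ranged from 19 without F-78(WT) replicate 1 to 1256 without vector replicate 1. In F-78(NLS Mut) against vector, where 148 were called, it was 413, 240, 230, 300 and 348 with DESeq2, no filter, the replicate block, the correction and both together. It ranged from 33 without F-78(NLS Mut) replicate 2 to 1002 without vector replicate 1. In F-78(WT) against NLS Mut, where 94 were called, it was 309 with DESeq2, 225 without a filter, 149 with a mean of at least 1 CPM, 315 with only the 2 groups, 212 with the replicate block, 429 with the correction and 502 with both, and ranged from 27 without F-78(NLS Mut) replicate 2 to 388 without vector replicate 1. Deviations from the group mean correlated at -0.02 to 0.06 between libraries of the same replicate number and at -0.05 to 0.02 between different numbers. For 2 of 9 libraries the best partner in both other groups had the same number. With 3 libraries per group, such correlations cannot show whether the numbers mark a shared batch, so this was not settled.

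The split into higher and lower calls moved from 40 and 64 to 137 and 65 with GC and length correction and to 26 and 115 with library size alone in F-78(WT) against vector. With the correction it moved from 55 and 93 to 224 and 76 in F-78(NLS Mut) against vector and from 56 and 38 to 197 and 232 between both forms.

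The number of members called ranged from 1 to 2 without 1 library in F-78(WT) against vector and from 0 to 2 in F-78(NLS Mut) against vector, with the added calls all without vector replicate 1. Between both forms it was 2 with the correction and 2 with the correction and the replicate block. Of 513 values for the other 9 members, 473 kept direction and call, 35 reversed and 5 gained a call. None that reversed was called in the fit reported. In F-78(WT) against vector, MGA was -0.021 with library size alone, -0.068 with the correction and -0.068 with the block added, and -0.025 to 0.069 without 1 library. MYCL was -0.17 with both strands and -0.20 to 0.35 without 1 library. MXD3 was 0.024 with both strands, 0.043 with the correction and 0.044 with the block added, and -0.23 to 0.0030 without 1 library, and MXD4 was -0.011 to 0.10. In F-78(NLS Mut) against vector, MYC was -0.060 to 0.091 without 1 library, MXI1 -0.022 to 0.15, MAX -0.087 to 0.016 and MXD1 -0.041 to 0.050. MXD1 was also -0.015 with library size alone, -0.028 with the correction and -0.027 with the block added, MAX was 0.027 and 0.025 with these, and MXD3 was 0.11 with both strands. In F-78(WT) against NLS Mut, MXD3 was -0.082 with both strands, and without 1 library MNT was -0.11 to 0.023, MXI1 -0.0054 to 0.068 and MLX -0.079 to 0.044. Low counts limit MYCL and MXD3 most.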
